A study of Mus musculus with 6 samples.

Results

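A total of 36 genes of macrophages and other leukocytes was followed in embryonic mouse hearts, out of 45706 genes in the deposited table. They were chosen by name, with the condition that the mean over the 6 hearts was at least 10, and all 36 met it. The lowest were Il34, at a mean of 10.2, and Cd163, at 12.3, and no named gene fell under the limit. Of these genes, 20 are counted here as resident macrophage genes, 5 as monocyte genes and 9 as genes shared by leukocytes, and 2, Csf1 and Il34, encode the ligands of the macrophage growth factor receptor CSF1R.

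Poly(A) RNA of whole hearts on the C57BL6/J strain was sequenced from stranded paired-end libraries. The 3 control hearts carried floxed alleles of both genes (RBPMS flox/flox RBPMS2 flox/flox) and were littermates. The 3 knockout hearts carried the same alleles plus a Cre transgene under the aMyHC promoter (aMyHC Cre pos), the alpha-myosin heavy chain promoter of cardiomyocytes. No control is labelled as carrying Cre, so the transgene and the deletion cannot be told apart, and cells other than cardiomyocytes, leukocytes among them, are not a target of this promoter. The sources used here do not give the embryonic day, and nothing in the labels says from how many litters the hearts came, so p-values measure the spread between these 6 hearts.

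Macrophages enter the heart during embryonic life from the yolk sac and fetal liver and stay there as resident cells that clear dying cells and debris. Their survival depends on CSF1R, which binds CSF1 and interleukin 34, and their identity on the transcription factor PU.1, the product of Spi1. Monocytes, which come later through the blood, are marked by the chemokine receptor CCR2, whereas CD45 (Ptprc), CD53 and the signalling adaptors TYROBP and FCER1G are shared by many leukocytes.

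PU.1 binds purine-rich sites in many myeloid promoters, so the promoters of genes that rose and hold the letters GAGGAAGT, a core of such sites, are shown first. The sequences are RefSeq promoters of build GRCm38.p6, 300 bases each, from 250 bases before an annotated start of the gene to 50 after it. They run 5′ to 3′ along the gene, and capitals mark GAGGAAGT or its reverse complement.
Ctss (chr3:95526536-95526835, plus strand): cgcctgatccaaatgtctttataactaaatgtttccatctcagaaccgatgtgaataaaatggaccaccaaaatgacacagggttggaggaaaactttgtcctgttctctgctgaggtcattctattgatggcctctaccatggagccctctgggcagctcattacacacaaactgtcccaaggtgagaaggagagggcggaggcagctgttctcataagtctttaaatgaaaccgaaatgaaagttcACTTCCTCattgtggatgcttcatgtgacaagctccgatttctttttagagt
Cd53 (chr3:106790100-106790399, minus strand): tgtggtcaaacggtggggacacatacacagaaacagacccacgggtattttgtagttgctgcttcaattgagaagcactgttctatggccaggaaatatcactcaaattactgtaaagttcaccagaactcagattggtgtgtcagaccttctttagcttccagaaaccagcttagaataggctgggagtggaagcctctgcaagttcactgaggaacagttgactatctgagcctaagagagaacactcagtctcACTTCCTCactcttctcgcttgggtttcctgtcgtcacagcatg
C1qc (chr4:136892865-136893164, minus strand): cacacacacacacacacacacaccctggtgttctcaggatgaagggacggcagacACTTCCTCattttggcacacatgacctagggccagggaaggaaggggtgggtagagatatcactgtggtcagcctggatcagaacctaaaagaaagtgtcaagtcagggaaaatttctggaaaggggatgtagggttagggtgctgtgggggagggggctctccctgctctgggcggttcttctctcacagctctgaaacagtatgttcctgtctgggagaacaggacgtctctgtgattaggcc
F13a1 (chr13:37049164-37049463, minus strand): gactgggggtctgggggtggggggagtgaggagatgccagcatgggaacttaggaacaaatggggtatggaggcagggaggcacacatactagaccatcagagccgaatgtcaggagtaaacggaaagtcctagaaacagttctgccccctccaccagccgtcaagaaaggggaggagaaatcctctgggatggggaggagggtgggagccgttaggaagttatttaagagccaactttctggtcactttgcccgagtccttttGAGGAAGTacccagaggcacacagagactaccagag
In Ctss the match begins 2 bases before the start and runs across it. In Cd53 it begins 6 bases and in F13a1 14 bases after the start, whereas in C1qc it begins 195 bases before it. F13a1 has another promoter of this length, at chr13:37050195-37050494, which holds no match. Of the 36 genes, 27 had at least 1 promoter in the table, 35 promoters in all. GAGGAAGT was found on either strand in 5 of the 35, the fifth being that of Pf4, and in 3.2% of all 32851 promoters of this length. TGCTGA, part of the site that MAF factors bind, was found in 9 of the 35 and in 19.5% of all promoters. The 9 belong to 7 of the 27 genes, as Fcgr3 and Folr2 each count with 2 promoters, and those of Fcgr3 overlap. A match describes the letters in this window and not binding.

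Depth differed between the hearts. The spacing of the low values gave estimates of 12960709 to 25837261 reads per heart, and the deposited totals after the authors' scaling were 17861435 to 18439201. Rbpms was at 3868 to 7656 over control hearts, against 852 to 1134 over the knockouts, and Rbpms2 at 1362 to 1998 and at 879 to 1003, so the targeted genes separated the groups as labelled. All values below are deposited values (scaled reads per gene), and changes are on the log2(value + 1) scale, knockout minus control.

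Most of the 36 genes were higher in the knockout hearts and none was lower by the test. In limma, fitted to all 15556 genes with a mean of at least 10, 26 of the 36 were higher at an adjusted p under 0.05, against 8.61% of all genes tested, and 0 were lower, against 8.56%. At an unadjusted p under 0.05 the number lower was also 0, as it was with limma-voom. The median log2 change of the 36 was 0.82, beside 0.0018 over all genes tested, and 35 of the 36 had a change above 0, against 50.3% of all genes. All 3 knockouts lay above all 3 controls in 29 of the 36, against 17.5% of all genes. In bulk tissue more cells of a type and more RNA per cell cannot be told apart. The count of 26 rested in part on 1 heart: without knockout replicate 2 it was 16, against 3.95% of all genes, and without each of the others it was 21 to 28. The 10 genes lost without knockout replicate 2 were Maf, Spi1, Trem2, Ms4a7, F13a1, Fcgr3, Cd14, Tyrobp, Cd53 and Aif1, and the other 16 passed without each heart in turn.

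**Figure D1:**
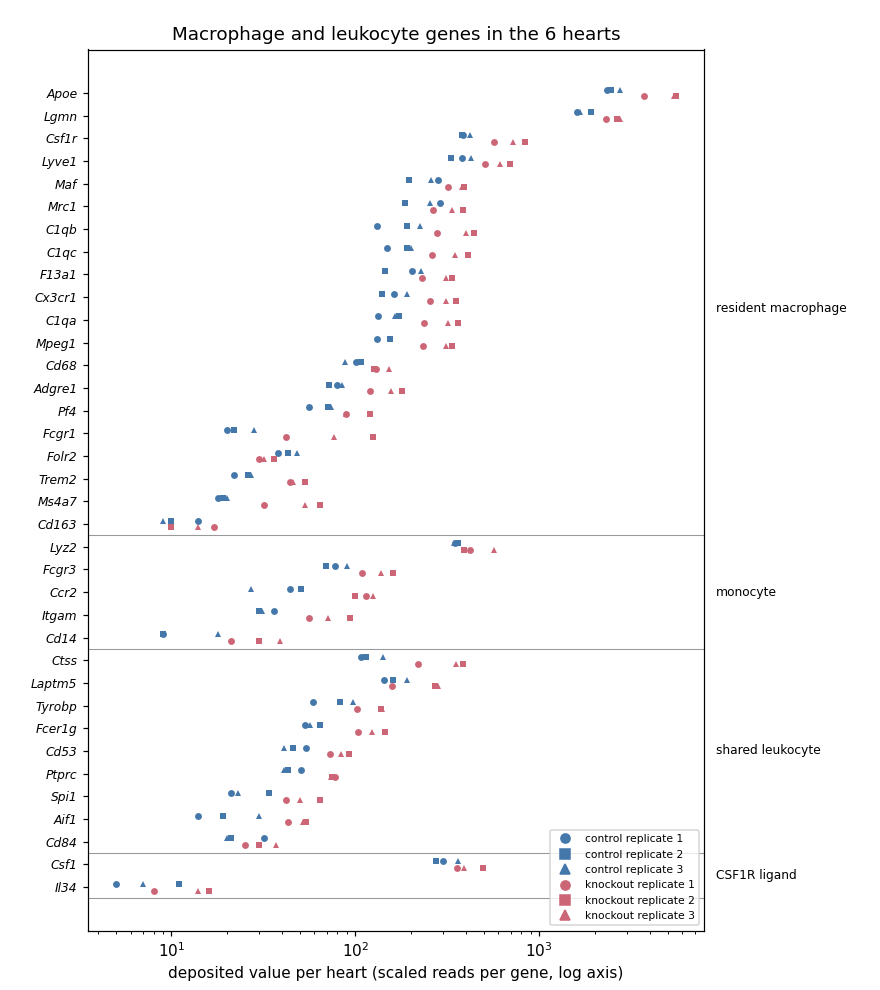
Deposited values of the 36 genes in each heart (horizontal log axis), grouped by class and ordered by mean, with 1 point per heart. Knockout points lie to the right of every control point in 29 genes, and knockout replicate 1 is the lowest knockout in 30.

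The knockout hearts kept an order among themselves. Knockout replicate 1 was the lowest of the 3 knockouts for 30 of the 36 genes, and knockout replicate 2 was the highest for 26. Relative to the control mean, the median log2 level of the 36 genes was 0.58 in knockout replicate 1, 1.05 in replicate 2 and 0.85 in replicate 3, and -0.08, -0.04 and 0.10 in the controls. The summed value of the 36 genes was 7911, 8198 and 8816 over control hearts, against 11591, 16005 and 15398 over the knockouts. Even the lowest knockout heart therefore lay above the highest control in the sum. Apoe and Lgmn, which other cells make too, weigh most in this sum. They stood at 2350 and 1605 in control replicate 1 and at 5546 and 2653 in knockout replicate 2.

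The ligands of CSF1R were not past the threshold. Csf1 stood at 301, 275 and 361 over control replicates 1 to 3, against 359, 497 and 390 over knockout replicates 1 to 3, the order used for all genes here, a log2 change of 0.41 (SE 0.14, limma adjusted p = 0.0765), and knockout replicate 1 lay just below control replicate 3. Without knockout replicate 1 the call changed, with an adjusted p of 0.0482. Il34 was near the lower limit of what was tested, at 5, 11 and 7 over control hearts, against 8, 16 and 14 over the knockouts.

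The receptor and the 2 transcription factors rose. Csf1r (ENSMUSG00000024621; mm10 chromosome 18, 61100598 to 61132149, plus strand) showed values of 386, 382 and 418 over the control hearts, with 566, 833 and 722 over the knockouts. The control hearts lay close together, at a mean of 395 ± 19.7, and the knockouts spread more widely, at 707 ± 134 (SD, n = 3 each), for a log2 change of 0.82 (SE 0.13, limma adjusted p = 0.00277). Of the exon bases of Csf1r, 15.1% overlap Hmgxb3 on the other strand, a gene at a mean of 783 in the controls and 625 in the knockouts, and the sources used here do not say whether counting used strand. Spi1 was at 21, 34 and 23 against 42, 64 and 50, a change of 0.98 (SE 0.25). Maf, a factor of macrophage differentiation that other cells also use, was at 283, 197 and 259 against 320, 392 and 380, and changed by 0.57 (SE 0.14). Spi1 was not past the threshold without control replicate 1 or 3 or knockout replicate 2 or 3, and Maf not without control replicate 2 or 3 or knockout replicate 2 or 3.

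The 3 chains of complement C1q, which macrophages secrete and which opens the classical complement pathway, rose by similar amounts. C1qa reached 133, 173 and 164 in control hearts, compared with 236, 363 and 320 for the knockouts. C1qb was at 132, 191 and 226 against 278, 444 and 402. C1qc was at 148, 191 and 201 against 260, 409 and 347. In each of the 3 genes control replicate 1 was the lowest heart and knockout replicate 2 the highest, and the groups did not overlap. Their log2 changes were 0.95 (SE 0.17), 1.04 (SE 0.21) and 0.90 (SE 0.17), with limma adjusted p = 0.00478, 0.00968 and 0.00747. Per kilobase of exon, the 3 chains stood at 151, 168 and 93.2 over control hearts, against 295, 344 and 175 over the knockouts.

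Surface receptors divided into those that rose and a smaller number that did not pass the test. Of 11, 8 were higher and 0 lower, against 8.61% higher and 8.56% lower over all genes tested. Adgre1, which encodes the macrophage antigen F4/80, stood at 80, 72 and 85 across control hearts, against 121, 180 and 156 across knockout hearts, a log2 change of 0.92 (SE 0.17, limma adjusted p = 0.00549). Cx3cr1, the receptor for the chemokine fractalkine, was at 162, 139 and 191 against 255, 355 and 311, a change of 0.90 (SE 0.15, limma adjusted p = 0.00413). For both genes the lowest knockout lay well above the highest control. Lyve1, a hyaluronan receptor of resident macrophages and also of lymphatic and endocardial endothelium, was at 382, 332 and 425 against 507, 697 and 610. It changed by 0.67 (SE 0.13). Among 13 endothelial markers 7 rose and 1 fell, against 8.61% higher and 8.56% lower over all genes tested. Those that rose included Npr3 by 0.95 (SE 0.07) and Emcn by 0.91 (SE 0.06). The part of endothelial cells in the value of Lyve1 was not tested. The 6 tested lymphatic endothelial markers passed the threshold in 0 cases, against 17.2% of all genes tested called in either direction. With a list this short, that count does not set it apart from other genes. The count was also 0 at an unadjusted p under 0.05 and with limma-voom. The summed value of the 6 was 3172 to 3531 in the controls and 3112 to 3325 in the knockouts. Prox1 weighs most in that sum, at a mean of 1823 in the controls and 1591 in the knockouts. Trem2, a lipid receptor that signals through TYROBP, was at 22, 26 and 27 against 44, 53 and 46, and Ms4a7, of the membrane-spanning 4A family, was at 18, 19 and 20 against 32, 64 and 53. They changed by 0.91 (SE 0.20) and 1.29 (SE 0.27).

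The 3 surface receptors that did not pass are scavenger and vitamin receptors of resident macrophages. Mrc1, the mannose receptor CD206, showed values of 290, 187 and 255 over the control hearts, with 266, 387 and 337 over the knockouts, and control replicate 1 lay above 1 knockout. Cd163, the receptor for haemoglobin bound to haptoglobin, was at 14, 10 and 9 against 17, 10 and 14, a level at which a heart gave few reads. Folr2 (ENSMUSG00000032725; mm10 chromosome 7, 101839988 to 101857194, minus strand), folate receptor beta, was the 1 gene of the 36 with a change below 0, at 38, 43 and 48 over control hearts, against 30, 36 and 32 over the knockouts. Its change was -0.38 (SE 0.20, limma adjusted p = 0.218), although every knockout lay below every control. In 35.4% of all genes tested the groups did not overlap in one direction or the other. The antisense gene Gm10602, at a mean of 113 in the controls and 97.3 in the knockouts, overlaps 63.1% of the exon bases of Folr2, so the value of Folr2 is uncertain if counting ignored strand.

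**Figure D2:**
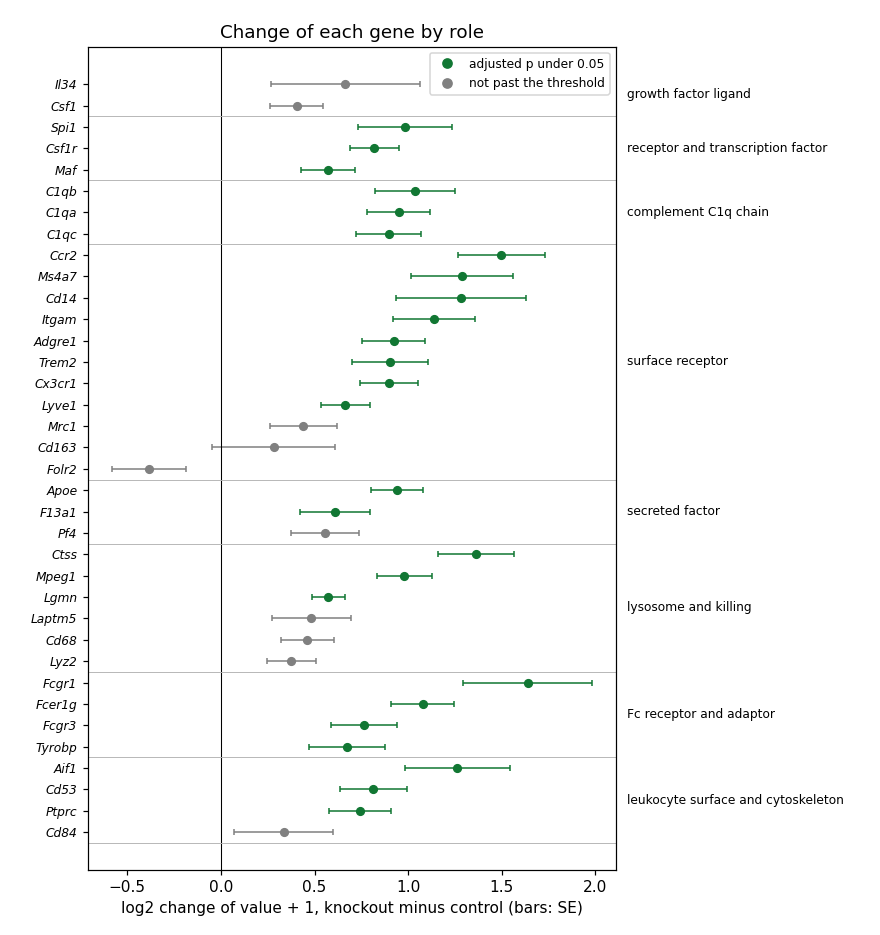
Log2 change of each gene (points) with its standard error (bars), grouped by role. Green points passed the threshold (26 of 36), and Folr2 is the 1 gene to the left of 0.

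The monocyte genes included some of the larger changes. Ccr2 (ENSMUSG00000049103; mm10 chromosome 9, 124101950 to 124113557, plus strand), the receptor for the chemokine CCL2, reached 44, 51 and 27 in control hearts, compared with 115, 100 and 125 for the knockouts. Its mean went from 40.7 ± 12.3 to 113 ± 12.6 (SD, n = 3 each), a log2 change of 1.5 (SE 0.23, limma adjusted p = 0.00266). Here knockout replicate 2 was the lowest of the 3 knockouts, whereas it was the highest for 26 of the 36 genes. Itgam, the integrin subunit CD11b, was at 36, 30 and 31 against 56, 94 and 71 and changed by 1.14 (SE 0.22). The gene Gm49368 shares 68.7% of the exon bases of Itgam on the same strand. Gm49368 has no deposited value, and the value of Itgam would be uncertain if Gm49368 entered the counting. Cd14, a co-receptor for lipopolysaccharide, was low, at 9, 9 and 18 against 21, 30 and 39, and rose by 1.28 (SE 0.35); the call was lost without control replicate 1 or 2 and without knockout replicate 2 or 3. Lyz2, lysozyme M, was at 348, 360 and 343 against 423, 391 and 568, a change of 0.38 (SE 0.13, limma adjusted p = 0.0773) that did not pass although the groups did not overlap. Its near copy Lyz1 was at 4 to 13 in all hearts.

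Of the 36 genes, the Fc receptor genes Fcgr1 and Fcgr3 and the adaptor genes Fcer1g and Tyrobp rose. Fcgr1 (ENSMUSG00000015947; mm10 chromosome 3, 96282909 to 96293969, minus strand), the high-affinity receptor for IgG, had the largest fitted change of the 36 genes. It stood at 20, 22 and 28 across control hearts, against 42, 125 and 77 across knockout hearts, a change of 1.64 (SE 0.34, limma adjusted p = 0.0106). Its knockout values spread widely, with replicate 2 far above replicate 1. Fcgr3, a low-affinity IgG receptor, was at 78, 69 and 90 against 109, 160 and 138, a change of 0.76 (SE 0.18) that was also lost without control replicate 2. Reads can be shared within the Fc receptor family. Of this family Fcgr2b did not pass, at 24, 16 and 28 against 26, 48 and 52. Fcgr4 passed and was higher, at 11, 12 and 4 against 22, 65 and 21, a change of 1.81 (SE 0.50, limma adjusted p = 0.0333). Its control mean was under 10, so it met the limit for testing only through the knockouts. Fcer1g, the gamma chain through which some Fc receptors signal, was at 53, 64 and 57 against 104, 145 and 124. It changed by 1.08 (SE 0.17, limma adjusted p = 0.00269). Tyrobp, the adaptor DAP12, was at 59, 83 and 97 against 102, 138 and 139. Its change of 0.67 (SE 0.21) was just past the threshold (limma adjusted p = 0.0484), and it was lost without control replicate 1 or 2 and without knockout replicate 2 or 3.

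Of the genes of the lysosome and of killing 3 of 6 rose, against 8.61% of all genes tested. Ctss (ENSMUSG00000038642; mm10 chromosome 3, 95526786 to 95556403, plus strand), the cathepsin S of antigen-presenting cells, showed values of 107, 114 and 142 over the control hearts, with 219, 385 and 355 over the knockouts. Its change was 1.36 (SE 0.20, limma adjusted p = 0.00226), and the lowest knockout lay above the highest control. Mpeg1, the pore-forming protein perforin-2, was at 132, 155 and 154 against 234, 335 and 312, a change of 0.98 (SE 0.15). Lgmn, the lysosomal protease legumain, was abundant, at 1605, 1904 and 1660 against 2305, 2653 and 2740, and changed by 0.57 (SE 0.09). Cd68, a lysosomal glycoprotein of macrophages, was at 101, 107 and 88 against 129, 127 and 153 and lay at the threshold (log2 change 0.46, SE 0.14, limma adjusted p = 0.0502). Laptm5, a lysosomal membrane protein of blood cells, was at 144, 160 and 192 against 159, 270 and 283, with knockout replicate 1 below control replicates 2 and 3; without that knockout it passed, with limma adjusted p = 0.00907.

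Of the secreted products, Apoe was the most abundant of the 36 genes per kilobase of exon, at 1174 in the controls and 2289 in the knockouts. It encodes a lipid carrier that macrophages make but that other cells make too, as is also so for Lgmn and Csf1. It was at 2350, 2443 and 2736 against 3694, 5546 and 5442, a log2 change of 0.94 (SE 0.14, limma adjusted p = 0.00216). F13a1, the A chain of coagulation factor XIII, was at 203, 145 and 228 against 230, 334 and 312, with knockout replicate 1 only just above control replicate 3. Its change of 0.61 (SE 0.19, limma adjusted p = 0.0492) was lost without control replicate 1 or 2 and without knockout replicate 2 or 3. Pf4, a chemokine of platelets and of some resident macrophages, was at 56, 71 and 74 against 89, 120 and 89 and did not pass (log2 change 0.56, SE 0.18, limma adjusted p = 0.0614). Megakaryocyte and platelet markers, which F13a1 and Pf4 can also follow, passed in 0 of 6 tested cases (1 higher at an unadjusted p under 0.05, 0 with limma-voom). Over all genes tested 17.2% were called in either direction, so with a list this short a count of 0 does not set it apart. The list summed to 380 to 415 in the controls and 414 to 529 in the knockouts, and its part in F13a1 and Pf4 was not tested.

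Genes shared by leukocytes rose in 7 of 9 cases, against 8.61% of all genes tested. Spi1, Tyrobp, Cd53 and Aif1, counted among the 7, were lost without knockout replicate 2. Ptprc reached 51, 43 and 41 in control hearts, compared with 78, 75 and 74 for the knockouts, so that the 3 knockouts were nearly equal. Its change was 0.74 (SE 0.17, limma adjusted p = 0.0139). Cd53, a tetraspanin, was at 54, 46 and 41 against 73, 93 and 84 and changed by 0.82 (SE 0.18), and Aif1, which encodes the actin-binding protein IBA1, was at 14, 19 and 30 against 43, 54 and 52 and changed by 1.26 (SE 0.28). Cd84, of the SLAM family, was at 32, 21 and 20 against 25, 30 and 37 and did not pass; control replicate 1 lay above 2 knockouts.

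To compare the genes with each other within a heart, each value was divided by that of Csf1r in the same heart. Relative to Csf1r, 25 of the other 35 genes overlapped between the groups, 4 were lower in every knockout and 6 higher in every knockout, where 80.6% of all genes tested were lower and 0.585% higher. Fcgr3 stood at 20.2%, 18.1% and 21.5% of Csf1r over control hearts, against 19.3%, 19.2% and 19.1% over the knockouts. Cx3cr1 stood at 42.0%, 36.4% and 45.7% against 45.1%, 42.6% and 43.1%. Both genes overlapped between the groups, and the 3 knockouts lay close together although knockout replicate 1 had the lowest value of each gene.

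The genes that left this ratio did so in both directions. Folr2 stood at 9.84%, 11.3% and 11.5% of Csf1r over control hearts, against 5.30%, 4.32% and 4.43% over the knockouts, 0.43 times the control mean. Mrc1 went from a mean of 61.7% to 46.7%, Lyz2 from 88.8% to 66.8% and Csf1 from 78.8% to 59.0%. Higher relative to Csf1r in every knockout were Fcgr1 (1.88 times the control mean), Ctss (1.46 times), Ms4a7 (1.43 times), Itgam (1.26 times), Fcer1g (1.2 times) and Adgre1 (1.08 times). Ccr2 overlapped between the groups by this measure, at 11.4%, 13.4% and 6.46% against 20.3%, 12% and 17.3%. These ratios are descriptions of 6 hearts, and Csf1r was picked as the reference after its values were seen.

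**Figure D3:**
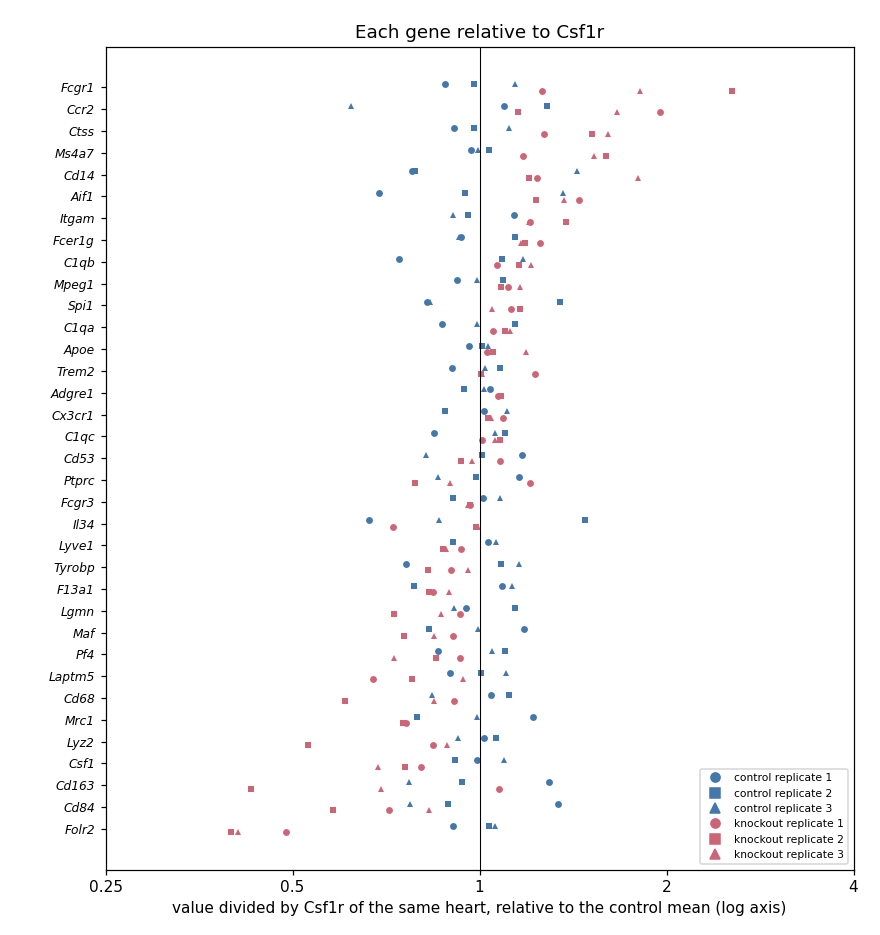
Each gene divided by Csf1r of the same heart, relative to the mean of the 3 controls (horizontal log axis), ordered by the knockout mean, with 1 point per heart. Knockout points sit near 1 for Fcgr3 and Cx3cr1, above the controls for Fcgr1 and Ctss, and at 0.43 on average for Folr2.

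Of 31 tested surface and enzyme genes of myeloid cells beyond the 36, 18 rose and 0 fell (median log2 change 0.80). Over all genes tested 8.61% were higher and 8.56% lower. The number of the 31 that rose moved to 7 without control replicate 1 or 2, 5 without knockout replicate 2 and 8 without knockout replicate 3. Cybb, the NADPH oxidase subunit of phagocytes, stood at 67, 73 and 64 across control hearts, against 127, 155 and 128 across knockout hearts. Clec4a2, a C-type lectin receptor, rose by 1.5 (SE 0.26) and the endocytic adaptor Dab2 by 0.38 (SE 0.07). Of 20 genes of myeloid transcription and signalling, 4 rose and 1 fell, and the rest did not pass (median 0.46). Beside the shares over all genes, counts this small do not set the list apart. With limma-voom 1 rose, with no filter on low values 1, and with a filter of at least 50 in 3 samples 0. Leaving out hearts, 1 rose without control replicate 1, knockout replicate 2 or knockout replicate 3 and 2 without control replicate 2 or 3. Runx1, a transcription factor of blood cells, was at 12, 15 and 14 against 20, 41 and 37 and the exchange factor Vav1 at 14, 19 and 21 against 34, 46 and 46. Syk, the kinase recruited by TYROBP and FCER1G and present in other cells too, fell from 828, 793 and 861 to 545, 499 and 506, a change of -0.68 (SE 0.08).

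Markers of other blood cells are given beside these genes, and their part in the result was not tested. Over all genes tested 8.61% were higher and 8.56% lower, so with lists this short, a count of 0 or 1 does not set a list apart from other genes. Of 18 lymphoid markers, 17 were below a mean of 10, 3 of them at 0 in every heart; Lck, the 1 tested, was at 10, 14 and 18 against 15, 29 and 26 and did not pass (0 at an unadjusted p under 0.05, 0 with limma-voom). Of 9 tested granulocyte and classical monocyte markers, Plac8 rose, at 6, 9 and 10 against 14, 31 and 21. This call was lost without every heart in turn other than knockout replicate 1. The control mean of Plac8 was 8.33, so it met the limit of a mean of 10 only through the knockouts. The list summed to 198 to 408 in the controls and 307 to 442 in the knockouts. Mast cell markers passed in 0 of 6 cases (0 at an unadjusted p under 0.05, 0 with limma-voom), with Cpa3 at 172, 99 and 148 against 115, 185 and 123 and Hdc at 191, 142 and 238 against 195, 249 and 191. Their sum was 426 to 722 against 484 to 847. Erythroid markers passed in 0 of 12 cases (0 with limma-voom, and without adjustment 1 higher and 5 lower at p under 0.05), and their sum was 38249 to 66453 in the controls and 31019 to 38068 in the knockouts. The adult alpha-globin gene Hba-a1 was at 7848, 8216 and 13295 against 6048, 5680 and 7708, and the beta-globin gene Hbb-bs at 18235, 19253 and 31898 against 17643, 15784 and 18630. Without control replicate 1 or knockout replicate 3, 3 erythroid markers were lower, and 1 was higher without knockout replicate 1 or 3; 1 mast cell marker was lower without control replicate 2. Platelet markers Itga2b and Itgb3 were at 69, 91 and 94 against 75, 91 and 111 and at 175, 204 and 162 against 209, 205 and 264.

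Markers of other cells of the heart wall were compared in the same way, and their part in the result was not tested. Over all genes tested 17.2% were called in either direction, a share that the counts of epicardial and cardiomyocyte markers are near. Of 13 endothelial markers 7 rose and 1 fell (median 0.26; sum 22458 to 23321 against 26713 to 29546), among them Emcn by 0.91 (SE 0.06), Npr3 by 0.95 (SE 0.07), Plvap by 0.89 (SE 0.13) and Tek by 0.43 (SE 0.08). Without knockout replicate 2, 4 rose. The 1 that fell, Stab2, at 50, 41 and 54 against 27, 35 and 25 and named as the single gene in that direction after its values were seen, was lost without each heart in turn. Of 11 fibroblast markers 4 rose and 0 fell (median 0.33; sum 91548 to 106627 against 119420 to 149453), namely Tcf21 by 0.78 (SE 0.14), Col1a2 by 0.57 (SE 0.13), Col3a1 by 0.55 (SE 0.10) and Postn by 0.50 (SE 0.09). Of 10 epicardial markers 2 rose (median 0.28; sum 4306 to 4546 against 4929 to 5427), Gpm6a by 0.72 (SE 0.13) and Lrrn4 by 0.50 (SE 0.14), and 1 without control replicate 1, knockout replicate 2 or knockout replicate 3. Of 13 cardiomyocyte markers Pln rose by 0.28 (SE 0.08) and Actc1 fell by 0.38 (SE 0.11) (median -0.16; sum 1164397 to 1208151 against 1002624 to 1126413), calls lost without every heart in turn other than knockout replicate 3 for Pln and knockout replicate 1 for Actc1. Of the lymphatic markers named above, Prox1 was at 1996, 1714 and 1759 against 1777, 1554 and 1442 and Flt4 at 657, 758 and 795 against 721, 804 and 907, and 1 of the list was lower without knockout replicate 1.

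**Figure D4:**
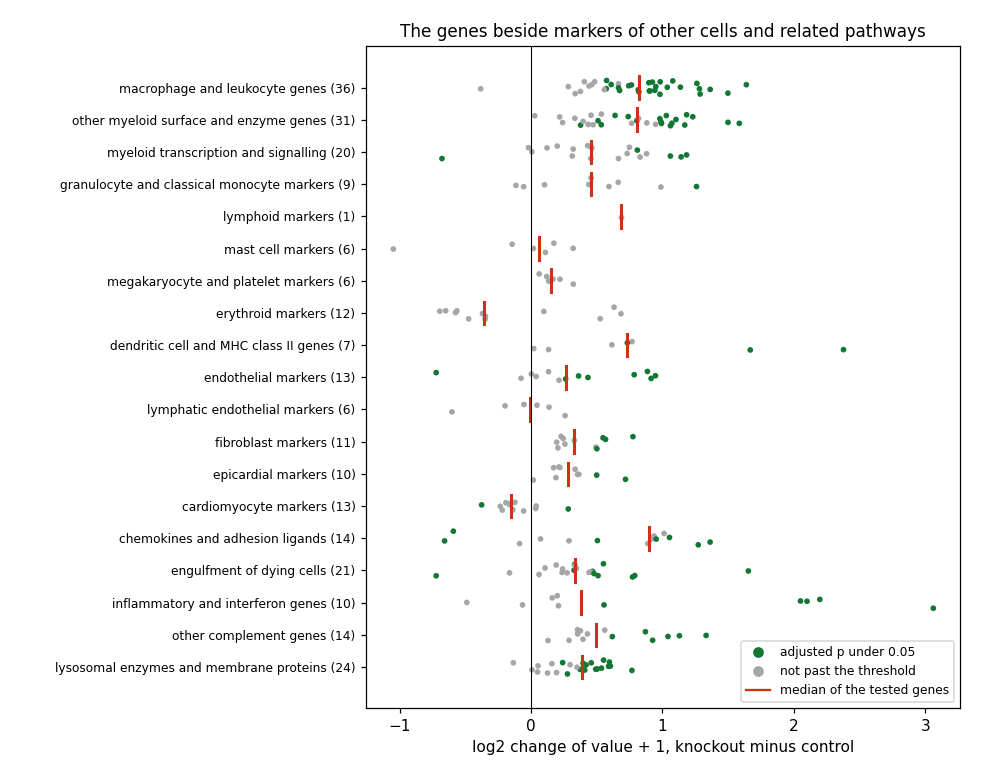
Log2 changes of the tested genes of each list, 1 point per gene, with the number tested in brackets and red bars at the medians. The 36 macrophage and leukocyte genes have a median of 0.82, other myeloid genes 0.80, fibroblast markers 0.33 and cardiomyocyte markers -0.16.

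Of 14 tested chemokines and adhesion ligands 5 rose and 2 fell, against 8.61% higher and 8.56% lower over all genes tested. With a list this short, the 2 that fell do not set it apart from other genes. Ccl2, the ligand of CCR2, showed values of 39, 33 and 41 over the control hearts, with 99, 73 and 68 over the knockouts, a change of 1.05 (SE 0.20, limma adjusted p = 0.00648). Ccl9 was at 17, 18 and 18 against 31, 52 and 53, and Cxcl16, a membrane-bound chemokine, at 102, 99 and 107 against 172, 225 and 205. Cxcl12, which retains blood precursors in tissues, fell from 2334, 1802 and 2274 to 1694, 1225 and 1170, a change of -0.66 (SE 0.14). The other gene that fell, Cx3cl1, encodes fractalkine, the ligand of CX3CR1; it was named for that receptor after its values were seen, at 239, 320 and 330 against 158, 184 and 252, with knockout replicate 3 above control replicate 1. Cxcl10, among those that rose, had a control mean of 5.67 and met the limit of a mean of 10 only through the knockouts. Without knockout replicate 2, 3 of the list rose. The number that fell was 0 without control replicate 3 or knockout replicate 2 and 1 without control replicate 2 or knockout replicate 1.

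Genes of complement, of lysosomes and of the engulfment of dying cells rose in part. Macrophages do this work, but bulk values do not show which cells of the heart the RNA came from. Over all genes tested 8.61% were higher and 8.56% lower. Of 14 tested complement genes beyond C1q 6 rose and 0 fell, among them the regulators Cd55 by 1.33 (SE 0.11) and Serping1 by 0.62 (SE 0.11) and the lectin pathway protease gene Masp1 by 0.93 (SE 0.13); these are not specific to leukocytes. Of 24 lysosomal genes 15 rose and 0 fell (median 0.38), with Ctsh at 242, 267 and 277 over control hearts, against 421, 460 and 458 over the knockouts, and Lamp2 rising by 0.60 (SE 0.07), Hexa by 0.60 (SE 0.09) and Lipa by 0.55 (SE 0.07). Of 21 genes of the engulfment of dying cells 9 rose and 1 fell (median 0.33), and 4 rose without control replicate 3 or knockout replicate 2 and 5 without knockout replicate 3. They included the integrin genes Itgav by 1.65 (SE 0.11) and Itgb5 by 0.79 (SE 0.12), Thbs1 by 0.77 (SE 0.11) and Anxa1 by 0.47 (SE 0.08), all of which many cells of the heart make. The list shares Mertk, Timd4, Stab1, Dock2 and Stab2 with the lists above.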

How the data were processed

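Each library is 1 heart, placed in its group by genotype and numbered by its title. Of the software, Trimmomatic, STAR 2.4.2a, featureCounts 1.5.0, DESeq and DESeq2 are named, with build mm10, per the submitters' processing notes; use of strand in counting is not given there. What the authors deposited is a score with no unit in the header: whole numbers whose totals and spacing show reads per gene that were scaled in each sample by the authors and then rounded. The scaling evens out depth, and rounding blurs values of a few reads. Because the values are scaled, a count test was not the main test, and limma 3.58.1 (R 4.3.3, with a mean-variance trend) was fitted to log2(value + 1) of the 15556 genes with a mean of at least 10, with group as the single term and Benjamini-Hochberg adjustment over all of them at 0.05. The fit and the estimate of reads from the spacing of low values were tested on simulated data. Members of a group differed by more than sampling noise, so no heart was counted as a repeat.

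The 36 genes and the 18 other lists (295 symbols, of which 2 were not matched) were chosen with earlier results of these data known. From each other list, up to 4 genes past the threshold with the smallest p were named or, where none passed, up to 2 with the highest mean; some genes that this rule names are not reported here. Coordinates and exon lengths are from GENCODE M21 (mm10), in which 45143 of the 45706 identifiers were found. Alternatives were other pseudocounts (0.1 and 10), filters, scalings, limma-voom on estimated reads, a replicate block, a minimum fold of 1.2 and leaving out each heart.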

Additional observations from a re-analysis of the deposited data

How the results depend on the processing

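The number of macrophage and leukocyte genes higher in the knockouts was 26, 27 with a pseudocount of 0.1, 21 with no filter on low values, 28 with equal totals, 24 with quantile normalization and 24 with limma-voom on estimated reads. It was 9 when tested against a fold change of 1.2 (1.36% of all genes tested) and 16 to 28 without each heart in turn; the number lower was 0 in each of these fits. With a filter of at least 50 in 3 samples, 26 of the 36 were tested and 21 were higher. In every fit in which they were tested, 9 genes passed (Apoe, C1qa, Ccr2, Csf1r, Ctss, Cx3cr1, Fcer1g, Itgam and Mpeg1). Over all genes tested, 1339 were higher and 1331 lower. These counts were 846 higher with no filter, 211 higher and 207 lower against a fold of 1.2, and 614 to 1237 higher and 691 to 1225 lower without each heart. For 3 mast cell and platelet genes not past the threshold the sign changed: Cpa3 was at -0.047 with quantile normalization and -0.21 to 0.186 without each heart, Hdc at -0.021 to 0.35 and Itga2b at -0.022 to 0.26 without each heart (log2 changes). Counts higher in other lists also moved by over 1.5 times. With no filter, other myeloid genes went from 18 to 7, myeloid signalling from 4 to 1, antigen presentation from 3 to 1 and engulfment from 9 to 5; with at least 50 in 3 samples, the first 3 went to 8, 0 and 0. Against a fold of 1.2, other myeloid genes went to 2, lysosomal genes from 15 to 3 and fibroblast markers from 4 to 0. No scaling moved the median change of all genes past 0.032. The replicate numbers did not pair the hearts: the deviations of same-numbered hearts correlated at -0.041, -0.372 and 0.0486. With the number as a replicate block, 29 of the 36 were higher.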

Other observations

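Irf7, Ifit3 and Ifit1, genes of the interferon response, were highest in knockout replicate 2. Of 10 tested inflammatory and interferon genes 5 rose and 0 fell, against 8.61% higher and 8.56% lower over all genes tested. The other 7 of the 17 genes listed had a mean under 10 and were not tested. Of the list, 3 rose without any 1 heart other than knockout replicate 1. With limma-voom 2 rose, and 2 with a filter of at least 50 in 3 samples. Irf7, a transcription factor of the interferon response, showed values of 28, 29 and 36 over the control hearts, with 69, 280 and 157 over the knockouts, a log2 change of 2.20 (SE 0.40, limma adjusted p = 0.00564). Ifit3, an interferon-induced antiviral gene, was at 10, 16 and 10 against 34, 102 and 44. Its relative Ifit1 was at 2, 9 and 4 against 22, 145 and 25. The control mean of Ifit1 was 5.0, so it met the limit of a mean of 10 only through the knockouts. Knockout replicate 2 is also the heart with the highest value of most of the 36 macrophage and leukocyte genes.

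Of 7 tested dendritic cell and MHC class II genes 3 rose and 0 fell, against 8.61% higher and 8.56% lower over all genes tested. Another 5 of the 12 genes listed had a mean under 10 and were not tested. Of the list, 2 rose without knockout replicate 2 and 1 without each of the other hearts. H2-Aa, an MHC class II chain, reached 11, 3 and 6 in control hearts, compared with 53, 18 and 45 for the knockouts. Its control mean was 6.67, so it met the limit of a mean of 10 only through the knockouts. Cd74, the invariant chain, was at 23 in each control and at 102, 30 and 138 in the knockouts, and H2-Eb1, another class II chain, at 22, 25 and 26 against 44, 34 and 46. In these 3 genes knockout replicate 2 was the lowest knockout, but not in all of the list: H2-DMa, chosen after its values were seen, was at 49, 51 and 44 in the knockouts, and Clec9a, chosen likewise, at 80, 110 and 100, and neither passed.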
